A study of Mus musculus with 4 samples.

Results

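The 9 neural long noncoding RNAs Malat1, Neat1, Miat, Rmst, Sox2ot, Snhg11, Pantr1, Dlx6os1 and Mir9-3hg were chosen by name from the 55421 genes listed in each library, and all 9 passed the expression filter. They were measured by RNA-seq of total RNA in dissociated prefrontal cortex (PFC) cells of newborn C57BL/6 mice of WT genotype. The cells were kept for 10 days in neurobasal medium with B27 and glutaMAX. One group of 2 libraries came from cultures given 5 ng/mL of the growth factor FGF2, and the other group of 2 libraries came from cultures given none. The titles number the libraries of each group without stating that they came from separate cultures, and the study's methods mention technical replicates. Every p-value therefore reflects only differences between these libraries, and those from edgeR use a spread pooled over genes. Counts on genes were between 9166432 and 10799886 per library, and a level in CPM is a count relative to the TMM-adjusted size of its library. These are bulk cultures, in which fewer cells of a type and less RNA per cell cannot be told apart.

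Long noncoding RNAs are transcripts that act, where they act, as RNA and not through a long open reading frame. Malat1 is concentrated in nuclear speckles, where splicing factors gather, Neat1 is the scaffold of paraspeckles, which hold RNA-binding proteins such as Sfpq and Nono, and Miat (also called Gomafu) is a nuclear RNA of neurons. Rmst, Sox2ot, Pantr1 and Dlx6os1 are transcribed from or near loci of neural transcription factors or are known as their partners, while Snhg11 and Mir9-3hg are host genes of small RNAs.

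Stretches of 3 nuclear RNAs are shown because they are the features by which these transcripts are known, and because the long and the short Neat1 isoforms share one gene count. They were read from GENCODE M21 transcripts (mm10) and are written 5′ to 3′ on the minus strand, which is the strand of all 3 genes. Capitals mark TACTAAC in Miat, AAAAGCAAA at the end of the A-rich tract in Malat1 and in the long Neat1 isoform, and the poly(A) signal AATAAA in the short Neat1 isoform. In order, the stretches are chr5:112217309-112217460, chr19:5795913-5796081, chr19:5824708-5824807 and chr19:5842307-5842396.
Miat repeat stretch: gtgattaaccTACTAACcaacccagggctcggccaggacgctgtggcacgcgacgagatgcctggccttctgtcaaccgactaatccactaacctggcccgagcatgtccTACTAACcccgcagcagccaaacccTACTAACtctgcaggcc
Malat1 A-rich tract: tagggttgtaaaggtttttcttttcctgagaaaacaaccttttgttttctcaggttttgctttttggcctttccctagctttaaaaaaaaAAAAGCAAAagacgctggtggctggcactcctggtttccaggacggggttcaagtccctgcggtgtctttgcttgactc
Neat1 long isoform end: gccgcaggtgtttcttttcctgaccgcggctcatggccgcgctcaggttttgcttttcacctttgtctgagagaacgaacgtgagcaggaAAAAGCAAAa
Neat1 short isoform end: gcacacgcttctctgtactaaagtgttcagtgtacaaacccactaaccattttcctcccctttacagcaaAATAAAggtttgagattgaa
The Miat transcript of 9163 bases held TACTAAC, the repeat that resembles the branch point sequence of introns, 6 times on its own strand, of which 3 lie in the stretch shown. Of the longest transcripts of 13133 long noncoding genes, 4.58% held TACTAAC at least once and 2 held it 6 or more times. AAAAGCAAA, searched on the transcript strand, was held by 3.34% of them. In Malat1 and in the long Neat1 isoform the A-rich tract is known to fold with upstream U-rich stretches into a triple helix that protects an end without a poly(A) tail. The long Neat1 isoform has 20771 bases in 1 exon and the short isoform has 3004 bases.

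The 9 RNAs did not move as a group. With FGF2, 3 of the 9 rose (Neat1, Malat1 and Pantr1), 3 fell (Rmst, Snhg11 and Miat), and Sox2ot, Dlx6os1 and Mir9-3hg did not pass the test, the quasi-likelihood test of edgeR, with p-values adjusted by Benjamini-Hochberg across the 17144 genes tested and a threshold of 0.05. Of all genes tested, 20.7% rose and 19.9% fell. Of the 2542 tested genes of the long noncoding class, which holds 8 of the 9 (GENCODE M21 lists Snhg11 as protein-coding), 14.2% rose and 6.88% fell, and among those 8 there were 3 that rose and 2 that fell. The median log2 fold change was 0.06 over the 9, 0.10 over the class and -8e-04 over all genes tested. Levels in the libraries with FGF2 were all above those without FGF2 for 4 of the 9 and all below for 3 of the 9, beside 33.6% and 33.4% of all genes tested.

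**Figure D1:**
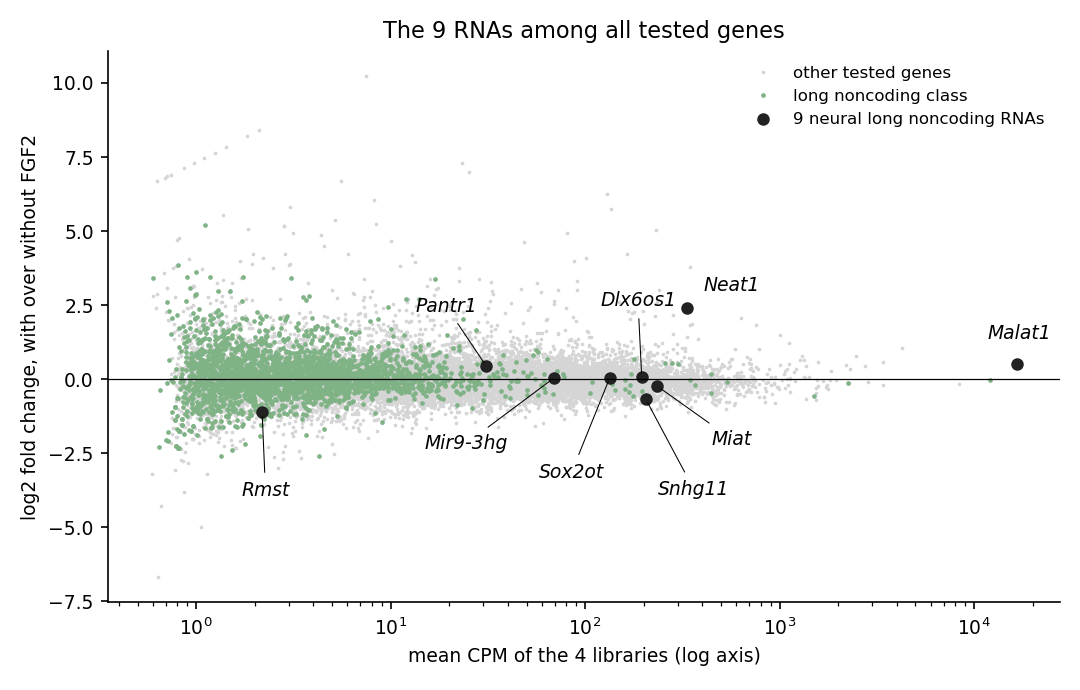
Log2 fold change (with over without FGF2) of every tested gene against its mean level in CPM over the 4 libraries, on a log axis. Each dot is a gene, with the long noncoding class in green and the 9 RNAs in black. Neat1 at 2.40 lies far above most genes of its level, and Malat1 lies at the right end as the most abundant gene.

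By level per length (FPKM, the CPM of a gene divided by its exonic length in kilobases), the order without FGF2 was Malat1, Dlx6os1, Snhg11, Miat, Mir9-3hg, Sox2ot, Pantr1, Neat1 and Rmst, from 1945 ± 17.9 FPKM for Malat1 (SD, n = 2) to 0.404 ± 0.0629 FPKM for Rmst. With FGF2 it was Malat1, Dlx6os1, Neat1, Miat, Snhg11, Mir9-3hg, Sox2ot, Pantr1 and Rmst, from 2793 ± 36 FPKM for Malat1 to 0.185 ± 0.00962 FPKM for Rmst. The orders differ in Neat1, which was at 5.08 ± 0.314 FPKM without FGF2, below Pantr1 at 5.90 ± 0.187 FPKM, and at 26.9 ± 0.568 FPKM with FGF2, above Miat at 23.3 ± 0.891 FPKM. They also differ in Snhg11, which was at 29.5 ± 1.21 FPKM beside Miat at 27.4 ± 0.517 FPKM without FGF2, and at 18.6 ± 0.0556 FPKM with FGF2. In neither group did the libraries of neighbours in its order overlap. These levels treat all exons of a gene as one transcript, so genes with many isoforms, such as Sox2ot with 18 annotated transcripts, are set too low where a short isoform dominates. This applies to Neat1 as well, whose counts were divided by 20771 exonic bases while its short isoform has 3004 bases. The place of Neat1 in both orders therefore depends on the length used. All 9 RNAs together took 2.05% and 2.09% of the counts on genes with FGF2 and 1.46% and 1.48% without FGF2, and without Malat1 they took 0.138% and 0.136% against 0.103% and 0.104%.

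**Figure D2:**
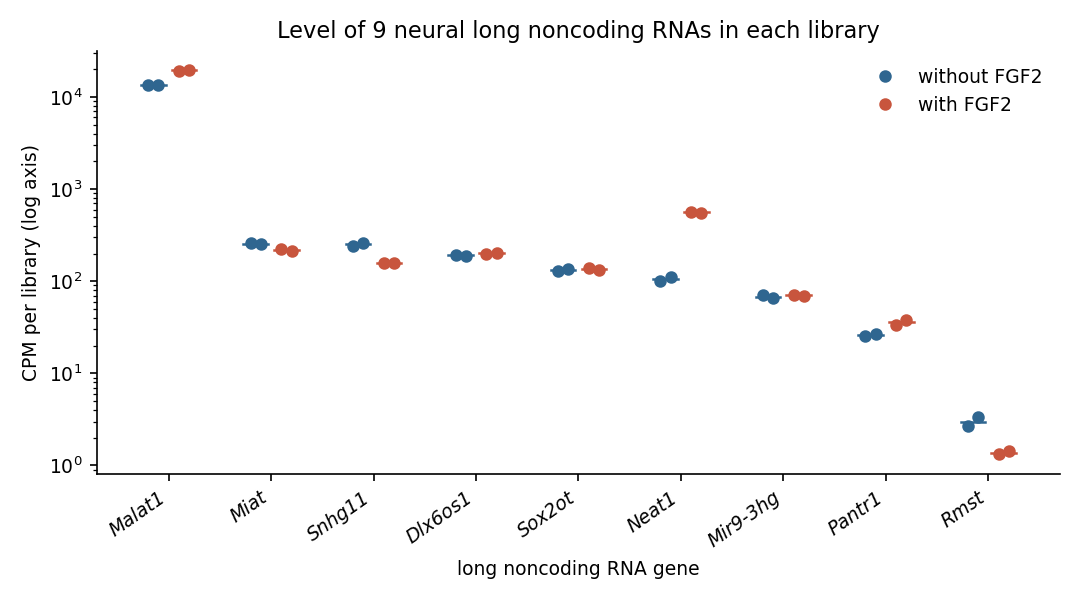
CPM of the 9 RNAs in each library, on a log axis, with 2 libraries per group as points and the group mean as a bar. The groups lie far apart for Neat1 (551 CPM or more against 110 CPM or less) and overlap for Sox2ot and Mir9-3hg.

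Neat1 (ENSMUSG00000092274, chr19:5824708-5845478, minus strand) had the largest change of the 9. It was counted 5151 and 5419 times in the FGF2 libraries and 1061 and 1193 times in those without, or 568 and 551 CPM against 101 and 110 CPM. Both libraries with FGF2 were far above both without. The level was 5.29-fold higher with FGF2 (log2 fold change 2.40, SE 0.05), with an adjusted p under 1e-300 by edgeR's quasi-likelihood test. Neat1 moved from rank 2487 and 2239 by count without FGF2 to rank 143 and 142 with FGF2, and its log2 fold change was the 5th highest of the 739 long noncoding genes with a mean of at least 5 CPM. A count per gene cannot separate the long isoform, which builds paraspeckles, from the short isoform.

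Malat1 (ENSMUSG00000092341, chr19:5795690-5802672, minus strand) lies on the same chromosome and strand as Neat1, with 22035 bases between them. It was the gene with the most counts in every library, at 175355 and 193568 counts in the FGF2 libraries and 141776 and 148000 in those without, or 1.91% and 1.95% of the counts on genes against 1.36% and 1.37%. The groups did not overlap, and the level was 1.44-fold higher with FGF2 (log2 fold change 0.52, SE 0.03, adjusted p = 9.5e-93 by edgeR's quasi-likelihood test). With the 9 RNAs left out of the library totals and the normalization, Malat1 stayed past the threshold in the same direction. The size of its adjusted p depended on the method, and limma-voom gave 0.0036.

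The 2 nuclear RNAs rose unequally. The ratio of Neat1 to Malat1 counts, which does not depend on the scaling, was 0.0294 and 0.0280 with FGF2 and 0.00749 and 0.00807 without FGF2. The log2 ratio was higher by 1.88, which is 3.69-fold (two-sided exact permutation test, p = 0.33, the smallest that 2 against 2 libraries allow). Frmd8, the protein-coding gene 4224 bases upstream of Neat1 on the same strand, rose as well (log2 fold change 1.21, SE 0.09, adjusted p = 5.0e-39 by edgeR's quasi-likelihood test).

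The genes of proteins that share nuclear bodies with these RNAs had log2 fold changes between -0.31 and 0.33. Of 17 paraspeckle protein genes, 1 rose, 4 fell and 12 did not pass, with a median log2 fold change of -0.08. The largest changes were those of Sfpq (-0.29) and Nudt21 (-0.23), which fell, and Nono (0.19), which rose. Sfpq and Nono are core paraspeckle proteins, and Nudt21 is a subunit of the cleavage factor that acts in 3′ end processing. Of 17 nuclear speckle genes, 5 rose, 3 fell and 9 did not pass, with a median log2 fold change of -0.0016. Here the largest changes were those of the splicing factors Srsf5 (0.33) and Prpf6 (0.32), which rose, and Rnps1 (-0.31), which fell.

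Miat (ENSMUSG00000097767, chr5:112213228-112229395, minus strand), whose repeat stretch is shown above, fell by a small amount. Its level was 222 and 210 CPM with FGF2 and 258 and 252 CPM without FGF2. The groups did not overlap, and the level was 1.18-fold lower with FGF2 (log2 fold change -0.24, SE 0.05, adjusted p = 2.3e-06 by edgeR's quasi-likelihood test). Gm26953, a long noncoding gene that shares 2260 exonic bases with Miat on the opposite strand, had at most 3 counts in any library. The protein-coding neighbours of Miat, Gm26897 and Cryba4, had at most 2 counts in any library and were not tested.

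Rmst (ENSMUSG00000112117, chr10:92071037-92165170, minus strand), known as a partner of the transcription factor Sox2 in neurogenesis, had the lowest level of the 9. It was counted 12 and 14 times in the FGF2 libraries and 28 and 36 times in those without, or 1.32 and 1.42 CPM against 2.67 and 3.33 CPM. The level was 2.17-fold lower with FGF2 (log2 fold change -1.12, SE 0.43, adjusted p = 0.027 by edgeR's quasi-likelihood test), with a 95% interval from -1.97 to -0.27. The groups did not overlap, but the call rests on few counts and on every library. The adjusted p by the same test was 0.084 without FGF2 replicate 1, 0.067 without FGF2 replicate 2, 0.057 without noFGF2 replicate 1 and 0.219 without noFGF2 replicate 2, with log2 fold changes of -1.07, -1.18, -1.27 and -0.95, and DESeq2 gave an adjusted p of 0.223. Entries annotated as misc_RNA on the same strand cover 12.5% of the exonic bases of Rmst, where reads can be ambiguous. The far neighbour Nedd1 rose (0.35, adjusted p = 0.045 by edgeR's quasi-likelihood test), and Tmpo had a log2 fold change of -0.12 and did not pass.

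Sox2ot (ENSMUSG00000105265, chr3:34104270-34682619, plus strand) contains the gene of Sox2, a transcription factor of neural progenitors and glia, within an intron and on the same strand. Its level was 140 and 134 CPM with FGF2 and 129 and 134 CPM without FGF2, and the groups overlapped. The log2 fold change was 0.06 with a 95% interval from -0.06 to 0.17 (adjusted p = 0.476 by edgeR's quasi-likelihood test). Sox2 itself rose, with a log2 fold change of 0.37 (adjusted p = 1.1e-05 by the same edgeR test). The count ratio of Sox2ot to Sox2 was 2.03 and 1.63 with FGF2 and 2.34 and 2.18 without FGF2, a difference of -0.31 in the log2 ratio (two-sided exact permutation test, p = 0.33, the smallest possible). The difference was -0.47 without FGF2 replicate 1 and -0.15 without FGF2 replicate 2.

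Pantr1 (ENSMUSG00000060424, chr1:42590782-42694842, minus strand) lies head to head with Pou3f3, a POU transcription factor of upper-layer cortical neurons and progenitors, with 926 bases between the genes. Pantr1 was at 33.3 and 38.2 CPM with FGF2 and 25.7 and 26.9 CPM without FGF2. The groups did not overlap, and the level was 1.36-fold higher with FGF2 (log2 fold change 0.45, SE 0.11, adjusted p = 3.1e-04 by edgeR's quasi-likelihood test). Pou3f3 had a log2 fold change of 0.10 and did not pass (adjusted p = 0.122 by the same edgeR test). The count ratio of Pantr1 to Pou3f3 was 0.205 and 0.240 with FGF2 and 0.167 and 0.186 without FGF2, a difference of 0.34 in the log2 ratio (two-sided exact permutation test, p = 0.33, the smallest possible), and of 0.22 without FGF2 replicate 2. Pou3f2, a related factor, rose (0.28, adjusted p = 0.0040 by the same edgeR test).

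Dlx6os1 (ENSMUSG00000090063, chr6:6820189-6871592, minus strand), also known as Evf2, spans Dlx6 on the opposite strand and lies 6213 bases from Dlx5, and both encode homeodomain factors of inhibitory neurons (IN). It was the second most abundant of the 9 per length, a rank that depends on the length used for Neat1. The level of Dlx6os1 was 199 and 202 CPM with FGF2 and 192 and 189 CPM without FGF2. Both libraries with FGF2 were above both without, yet the log2 fold change was 0.07 with a 95% interval from -0.03 to 0.17 and did not pass (adjusted p = 0.269 by edgeR's quasi-likelihood test).

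The 4 protein-coding Dlx genes listed beside it fell, of which Dlx6 and Dlx5 lie at its locus. With FGF2 the log2 fold change was -0.65 for Dlx6 (adjusted p = 0.024), -0.39 for Dlx5 (9.7e-04), -0.64 for Dlx1 (2.8e-31) and -0.46 for Dlx2 (5.1e-05), all by edgeR's quasi-likelihood test. Dlx6 was counted 45 and 43 times in the FGF2 libraries and 80 and 76 times in those without. The count ratio of Dlx6os1 to Dlx6 was 39.3 and 45.1 with FGF2 and 24.96 and 26.6 without FGF2, a difference of 0.71 in the log2 ratio. The ratio to Dlx5 was 5.96 and 7.16 against 4.98 and 4.56, a difference of 0.46. The ratio to Gad2, which encodes a GABA-synthesizing enzyme, was 1.34 and 1.31 against 0.767 and 0.759, a difference of 0.79. In each of these 3 ratios the groups did not overlap, and each gave the smallest p that 2 against 2 libraries allow (two-sided exact permutation test, p = 0.33, for each of the 6 ratios computed, so adjustment over the 6 leaves it at 0.33). Of the 8 genes listed as partners of these loci, 3 rose, 4 fell and 1 did not pass, with Ptbp2, a neural splicing regulator, at 0.14 (adjusted p = 0.027 by edgeR's quasi-likelihood test).

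**Figure D3:**
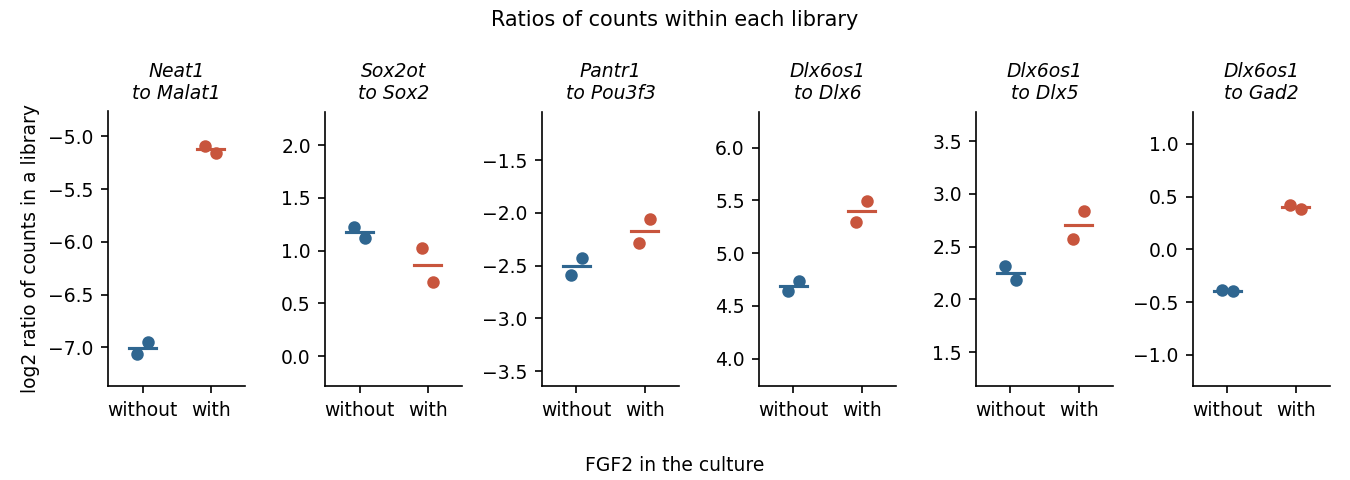
Log2 ratio of counts of 2 genes in each library for 6 pairs, without FGF2 in blue and with FGF2 in red, with group means as bars and the same height of axis in each panel. The groups do not overlap in any of the 6 panels, and the shift is largest for Neat1 to Malat1 (1.88).

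Snhg11 (ENSMUSG00000044349, chr2:158375638-158386145, plus strand) hosts a small nucleolar RNA and is abundant in neurons. Its level was 158 and 159 CPM with FGF2 and 244 and 259 CPM without FGF2. The groups did not overlap, and the level was 1.59-fold lower with FGF2 (log2 fold change -0.67, SE 0.05, adjusted p = 5.6e-40 by edgeR's quasi-likelihood test). Its flanking genes moved in opposite directions. Lbp, which encodes a lipopolysaccharide-binding protein, rose (1.64, adjusted p = 1.0e-54), and Ralgapb fell by less than Snhg11 (-0.13, adjusted p = 0.023), both by the same edgeR test.

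Mir9-3hg (ENSMUSG00000097023, chr7:79500026-79534403, plus strand) hosts Mir9-3, one of the genes of miR-9, a microRNA of neural progenitors and neurons. Its mature forms are shown because the host gene is named for them and is counted more often than Mir9-3 itself. The sequences come from RefSeq on GRCm38.p6, with the seed (bases 2 to 8) in capitals.
miR-9-5p: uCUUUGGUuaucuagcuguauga
miR-9-3p: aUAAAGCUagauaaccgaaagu
Both lie in an intron of the host gene, at chr7:79505279-79505301 and chr7:79505318-79505339. The host was at 70.9 and 69.3 CPM with FGF2 and 70.2 and 66.0 CPM without FGF2, and the groups overlapped. The log2 fold change was 0.04 with a 95% interval from -0.11 to 0.19 (adjusted p = 0.721 by edgeR's quasi-likelihood test), and it was -0.0072 without noFGF2 replicate 2. The Mir9-3 entry was counted 9 and 11 times in the FGF2 libraries and 18 and 8 times in those without. These counts come from read pairs of total RNA and do not measure the mature forms. C130071C03Rik, the host of another miR-9 gene, had a log2 fold change of -0.02 and did not pass, while the hosts of miR-124, Mir124a-1hg (-0.55) and Mir124-2hg (-0.41), fell. These 3 hosts were named after their values were seen. Polg, the nearest protein-coding gene before Mir9-3hg, rose (0.25, adjusted p = 0.0045 by the same edgeR test).

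**Figure D4:**
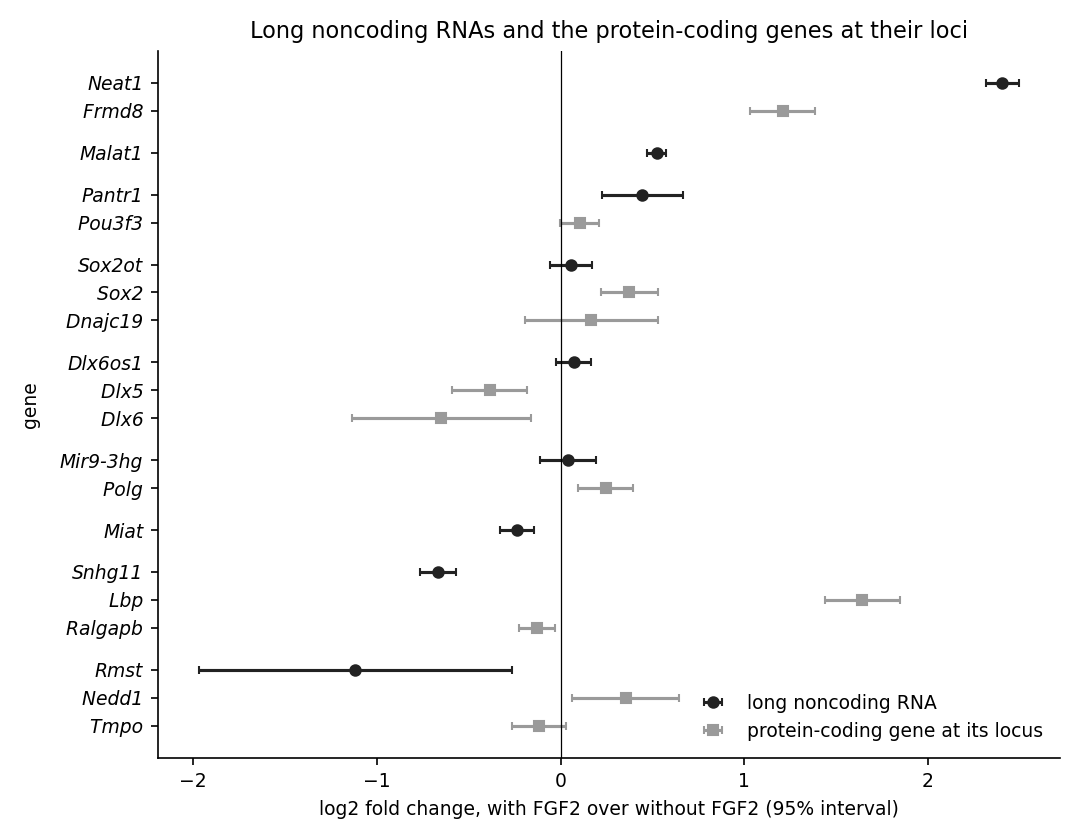
Log2 fold change (with over without FGF2) with its 95% interval from edgeR for the 9 RNAs (black circles) and protein-coding genes at or next to their loci (grey squares), over 2 libraries per group. Within a locus, Sox2ot is at 0.06 and Sox2 at 0.37, and Dlx6os1 is at 0.07 and Dlx6 at -0.65.

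Of 47 other long noncoding genes listed beside the 9, 40 were tested, of which 9 rose, 10 fell and 21 did not pass, with a median log2 fold change of 0.05. The largest changes were those of H19 (3.40) and Mir99ahg (1.67), which rose, and A330008L17Rik (-1.68), which fell. Over the 4 libraries, the long noncoding genes of at least 5 CPM whose centred log2 CPM lay nearest to each RNA were as follows. Nearest to Neat1 were 9630013A20Rik, with a log2 fold change of 2.45, and C530044C16Rik, with 2.71. Nearest to Malat1 were Gm42047 and 9330162G02Rik, to Miat 5430434F05Rik and Gm43457, and to Snhg11 9330102E08Rik and 2900079G21Rik. Nearest to Pantr1 were Gm37674 and A330076H08Rik, to Rmst C78859 and C130026L21Rik, and to Sox2ot Gm20186 and Gm49411. Nearest to Dlx6os1 were Gm43379 and Gm45221, and to Mir9-3hg Tctn2 and AI480526. Membership in the long noncoding class, also that of Tctn2, rests on GENCODE M21 alone. The distances ran from 0.0280 to 0.3144 log2 units among 738 or 739 candidates, and with 4 libraries they are a description only.

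Markers of cell types moved with the same groups, and their part in the changes of the 9 RNAs was not tested. Of 12 pan-neuronal markers 10 fell and 1 rose, with a summed level of 3866 and 3986 CPM with FGF2 and 5583 and 5575 CPM without FGF2. Of 12 IN markers, which include the 4 Dlx genes above, 11 fell, from 1211 and 1256 CPM without FGF2 to 749 and 754 CPM with FGF2. Of 12 excitatory neuron (EN) markers 6 fell and none rose, from 854 and 871 CPM to 633 and 615 CPM. Of 11 astrocyte markers 9 rose and 1 fell, with a summed level that went from 8127 and 8092 CPM to 13194 and 13030 CPM. Gfap weighed most in that sum, with a mean of 2776 CPM without FGF2 and 5793 CPM with FGF2. All 9 tested markers of the oligodendrocyte lineage rose, from 560 and 569 CPM to 1864 and 1873 CPM. The 10th, Mog, had at most 4 counts in any library. Of 10 progenitor markers 4 rose and 3 fell, and of 8 proliferation markers 7 fell. Among 8 microglial markers 4 were tested and 2 rose, with a summed level of 5.4 to 14 CPM over the 4 libraries. Among 10 vascular and meningeal markers 7 were tested, of which 3 rose and 2 fell, and Cldn5 was at 0 counts in every library. Pdgfra, among those that rose (mean 266 CPM with FGF2 and 159 CPM without FGF2), is also in the oligodendrocyte lineage list. Of 8 genes that respond to FGF signalling, 6 rose and 1 fell.

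**Figure D5:**
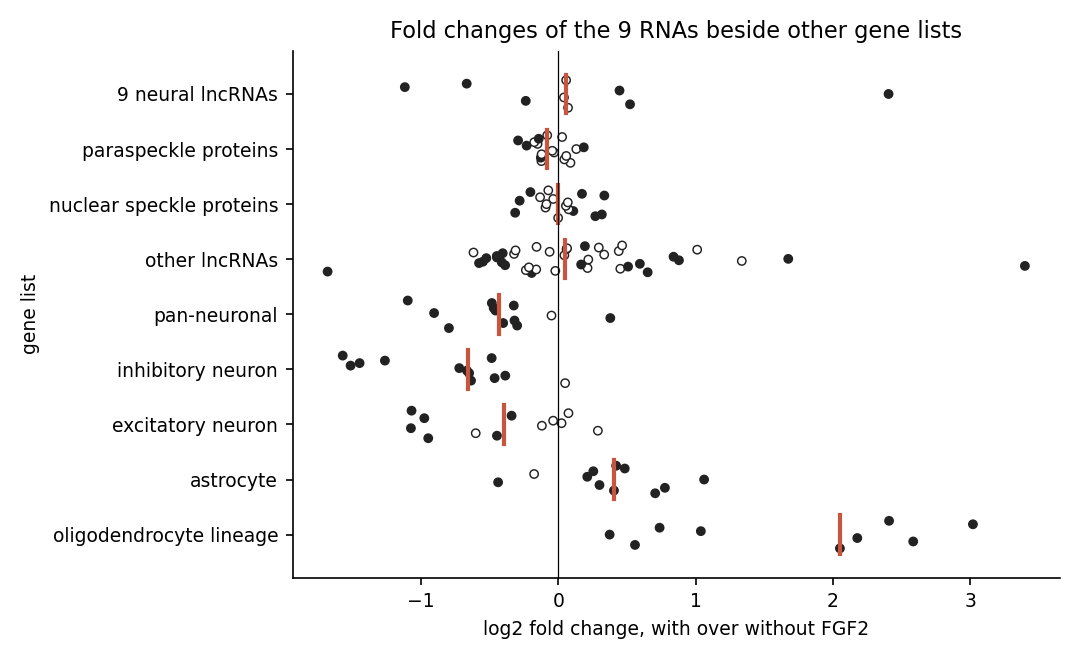
Log2 fold change (with over without FGF2) of each tested gene in 9 lists, with filled points past the adjusted p threshold of 0.05 by edgeR, open points not past it, and the list median as a red bar. The 9 RNAs spread from -1.12 to 2.40 around a median of 0.06, while the oligodendrocyte lineage list has a median of 2.05 and the IN list a median of -0.66.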

How the data were processed

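Total RNA of 4 libraries was sequenced as read pairs. Per the labels and the study's methods, the authors mapped reads to mm10 with HISAT2 2.1.0, filtered them with Samtools to a mapping quality of at least 20, ran HTSeq 0.11.2 for the gene counts, and deposited raw counts. The annotation release and the strand setting are not given in the sources used here. Of genes covered to at least 98% by others, 4 of 669 had a count where the cover was on the same strand and 164 of 477 where it was on the opposite strand, so the counts kept strands apart. Pairs in no feature made up 43.2% to 45.9% of those tallied, ambiguous pairs 1.47% to 1.76%, and both were left out. A total of 55240 identifiers matched GENCODE M21.

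Counts were fitted with edgeR 4.0.16 in R 4.3.3 (TMM factors 0.992 to 1.01, expression filter by group, robust quasi-likelihood test). The fit pooled the spread over genes almost wholly (biological coefficient of variation 3.90%), so an SE reflects genes of like level more than the gene's own replicates. CPM and FPKM were computed from TMM-scaled totals, FPKM with all exonic bases of a gene. A level of 3 counts is 0.278 to 0.327 CPM. Ratios used a prior count of 1 and an exact permutation test (scipy 1.17.1). Intervals cover 95%. Replicates differed by more than sampling noise (chi-square per degree of freedom 2.28 with FGF2 and 1.76 without). Alternatives were other scalings and filters, DESeq2 1.42.0, limma-voom (limma 3.58.1), a replicate block, a threshold of 0.01 and each library left out. The text names every RNA of the 9, the 3 largest changes of each gene list, all listed partners, flanking and overlapping genes, and the 2 nearest long noncoding genes. A flanking gene that this rule takes is not reported here. The 9 RNAs and the lists were chosen with earlier results of these data known.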

Additional observations from a re-analysis of the deposited data

How the results depend on the processing

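Of 126 values of the 9 RNAs under 14 alternatives, 119 kept their direction and their side of the threshold, and 7 of the 9 RNAs did so under every alternative. Rmst did not pass with DESeq2 (-1.13, adjusted p = 0.223) or at a threshold of 0.01 (-1.12), and with a library left out it ranged from -1.27 to -0.95 and passed in none of the 4 fits. Mir9-3hg, which was not past the threshold, ranged from -0.0072 to 0.0816 with a library left out, the negative value being without noFGF2 replicate 2. All genes past the threshold numbered 6949 by edgeR and 4007 with DESeq2 (2068 higher and 1939 lower). Long noncoding genes past it numbered 535, against 186 with DESeq2, 332 at a threshold of 0.01, and 319 to 435 with a library left out, with 319 without noFGF2 replicate 1 and 348 without noFGF2 replicate 2. The cause of these differences was not tested, except that a stricter threshold calls fewer genes by construction. The 6 ratios kept their direction with a prior count of 0.1 and with each library left out. The scalings moved the median of all genes by at most 0.026. Samples with the same number did not deviate together (correlation 1.3e-05), so the number is not known to pair them, and with the replicate block 6814 genes passed and the calls of the 9 RNAs were the same. The few counts of Rmst and Mir9-3 limit what can be said of them.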
